A study of Drosophila melanogaster with 62 samples.

Results

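Total RNA of stage 5 Drosophila melanogaster embryos depleted of the acetyltransferase Nejire was set directly against that of embryos depleted of the acetyltransferase Gcn5. The comparison holds 5 of the 62 libraries of the series, chosen by their titles: 3 libraries labelled NejireKD and 2 labelled Gcn5KD. Each library was made from 20 hand-sorted embryos. Nejire knockdown embryos came from the cross NI715xN174, Gcn5 knockdown embryos from T400xN174 and control embryos from T180xN174, per the library names. The knockdowns thus shared the line N174 and differed in the other line, so knockdown and line cannot be told apart. Which promoter drove each knockdown is not given in the sources used here, and all libraries of both knockdowns carry 1 shared date in their names. The study compared enzymes that set or remove histone acetylation before and after the embryo starts to transcribe its own genome. 3 Nejire and 3 Gcn5 knockdown libraries of stage 2, an earlier stage that runs on RNA loaded by the mother, served to show which differences were already present. Stage 5 and stage 2 controls (3 libraries each) are given as levels for orientation and were tested against neither knockdown. Statements that a knockdown lay above or below the controls describe the libraries only and were not tested. The controls did enter the fits from which the spread was estimated. The HDAC1 and HDAC3 knockdown libraries of both stages, from other lines crossed to N174, entered the same fits. Some of their stage 5 levels are shown as well.

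Nejire is the fly orthologue of the mammalian coactivators CBP and p300. It is recruited by sequence-specific activators and acetylates histone H3 lysines at enhancers and promoters, and in the blastoderm it works with the maternal gradients and with Zelda, the factor that opens early enhancers. Gcn5 is the catalytic subunit of the SAGA and ATAC complexes, which bind activators through other subunits and acetylate other lysines of H3 and H4. Stage 5 is the cellular blastoderm, in which the gap, pair-rule and dorsoventral genes divide the embryo while many maternal RNAs are degraded.

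The 5 libraries held 5.42 to 11.6 M counts. Replicates of a group correlated at 0.987 to 0.991 across genes in log2 CPM, and they differed by more than counting noise. Levels are counts per M counts after TMM scaling (CPM), a scale that does not correct for gene length. A difference was called at an adjusted p under 0.05 in edgeR's quasi-likelihood test, and folds are Nejire over Gcn5 knockdown. Nothing in the labels says that replicates came from separate crosses, so p-values measure only the variation among these pools of embryos, which may be technical. In whole embryos, fewer cells that make an RNA and less RNA per cell cannot be told apart.

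The targeted genes were read first. Gcn5 (FBgn0020388, chr3L:12521129-12524014, minus strand) had 226, 227 and 225 CPM in Nejire knockdown embryos, against 36.5 and 29.7 CPM in Gcn5 knockdown embryos. Both Gcn5 knockdown libraries lay far below every other one, 6.83-fold lower than Nejire knockdown (log2 fold 2.77 ± 0.13 SE, adjusted p = 2.12e-11), and controls averaged 236 CPM. nej (FBgn0261617, chrX:9665442-9687066, minus strand), which encodes Nejire, had 266, 183 and 343 CPM in Nejire knockdown embryos, against 446 and 289 CPM in Gcn5 knockdown embryos. The ranges overlapped and the difference was not called (log2 fold -0.47 ± 0.35 SE, adjusted p = 0.242). It was called lower with an offset for exon length (adjusted p = 0.0051), without the filter of low counts and with scaling to stable genes. Controls had 1648, 719.8 and 713 CPM of nej, above all 5 knockdown libraries. At stage 2 nej was lower in Nejire than in Gcn5 knockdown embryos, at a mean of 98.5 against 198 CPM (log2 fold -1.01 ± 0.26 SE, adjusted p = 0.0053). Gcn5 at stage 2 averaged 146 CPM in Nejire knockdown embryos and 0.153 CPM in Gcn5 knockdown embryos.

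The knockdowns differed widely. Of 8236 genes tested, 5268 (64%) were called, 2320 higher (28.2%) and 2948 lower (35.8%) in Nejire than in Gcn5 knockdown embryos. At least a doubling or halving on the linear scale was passed by 1268 of the higher and 2111 of the lower genes. The Nejire and Gcn5 knockdown libraries did not overlap for 6217 genes (75.5%), so a single gene that is called, or whose libraries do not overlap, is near the background here. The median log2 fold over all genes tested was -0.14. With libraries scaled to genes that were stable between stages, that median moved by -0.38 and 1610 genes were higher and 4342 lower. Small differences and shares of higher and lower calls therefore depended on the scaling.

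The groups differed by the history of the transcripts, newly made RNAs being lower and maternal RNAs more often higher in Nejire knockdown embryos. Classes were taken from other control libraries of the series (those of the set that the labels call batch1), by whether an RNA appeared, grew, stayed or vanished between stage 2 and stage 5. Of 1134 zygotic genes tested, silent at stage 2 and switched on by stage 5, 819 were lower and 24 higher in Nejire knockdown embryos, with a median log2 fold of -1.95. Of 1996 cleared genes, maternal RNAs that are degraded, 972 were higher and 553 lower (median 0.53). The 1079 maternal-zygotic genes had a median of -0.27 (88 higher, 488 lower) and the 1553 stable genes one of 0.18 (642 higher, 382 lower). The stable genes changed sign to -0.20 when libraries were scaled to them. Zygotic genes held 1.58, 1.01 and 1.36% of all counts in Nejire knockdown libraries, against 6.04 and 5.61% in Gcn5 knockdown libraries. Cleared genes held 11.7, 13.8 and 12.2% in Nejire knockdown libraries, against 6.83 and 6.60% in Gcn5 knockdown libraries. Controls lay between in zygotic RNA, at 4.35 to 5.18%.

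**Figure D1:**
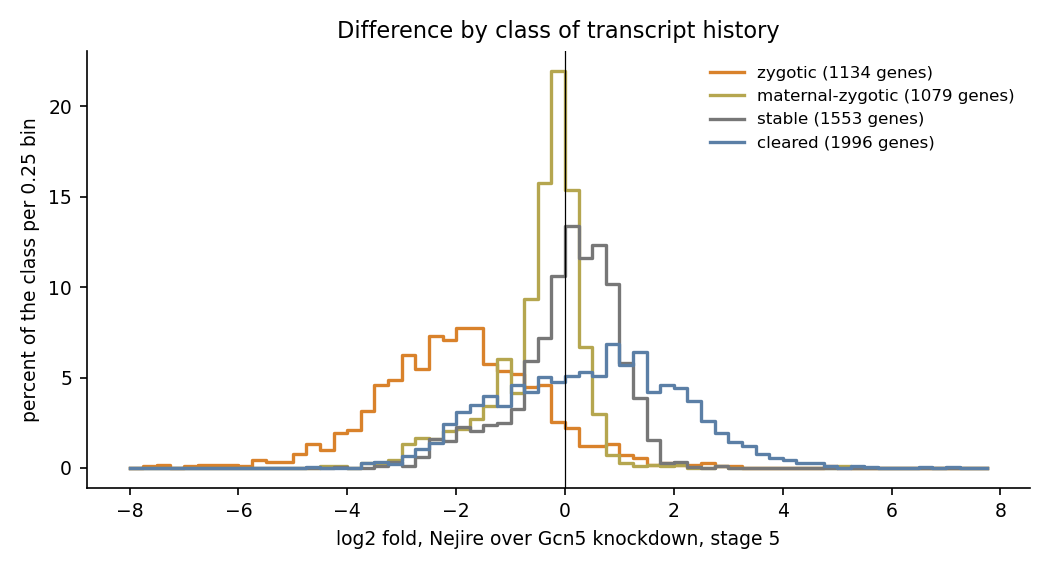
Log2 fold at stage 5 (Nejire over Gcn5 knockdown, x axis) for genes grouped by their history between stage 2 and stage 5, as percent of each class per bin of 0.25 (y axis). The zygotic class is centred near -1.95, the cleared class spreads widely to the right of 0, and the stable and maternal-zygotic classes lie close to 0.

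Markers of progress through the blastoderm moved with this comparison. bcd (chr3R:6755842-6759466, minus strand), the maternal morphogen RNA of the head, had 147, 181 and 156 CPM in Nejire knockdown embryos, against 8.68 and 6.68 CPM in Gcn5 knockdown embryos and 128, 63.9 and 64.9 CPM in controls. nullo (chrX:7049476-7050321, plus strand), a short-lived zygotic transcript of early cellularization, had 54.6, 47.7 and 47.6 CPM in Nejire knockdown embryos, against 1.36 and 2.41 CPM in Gcn5 knockdown embryos and 46.3 to 62.7 CPM in controls. All 3 Nejire knockdown libraries thus lay near or above the controls for both genes, while both Gcn5 knockdown libraries lay far below them. elav, a neuronal RNA-binding protein gene that comes on later, averaged 21.8 ± 6.27 CPM in Nejire knockdown embryos (SD, n = 3), against 135 and 104 CPM in Gcn5 knockdown embryos, with controls at 84.7 to 101 CPM. The HDAC1 and HDAC3 knockdown libraries of the same stage also held little bcd, on average 4.75 and 21.3 CPM. slam, needed for the cellularization furrow, averaged 2510.3 ± 753 CPM in Nejire knockdown embryos and 2465 ± 37.3 CPM in Gcn5 knockdown embryos (SD, n = 3 and 2; log2 fold 0.03 ± 0.27 SE, adjusted p = 0.936), with controls at 4947 CPM. Of the other stage 5 markers, Sry-alpha was listed at 0 in all these libraries. The age of the embryos within stage 5 and the knockdown cannot be told apart in these libraries, and this holds for every gene group that follows.

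**Figure D2:**
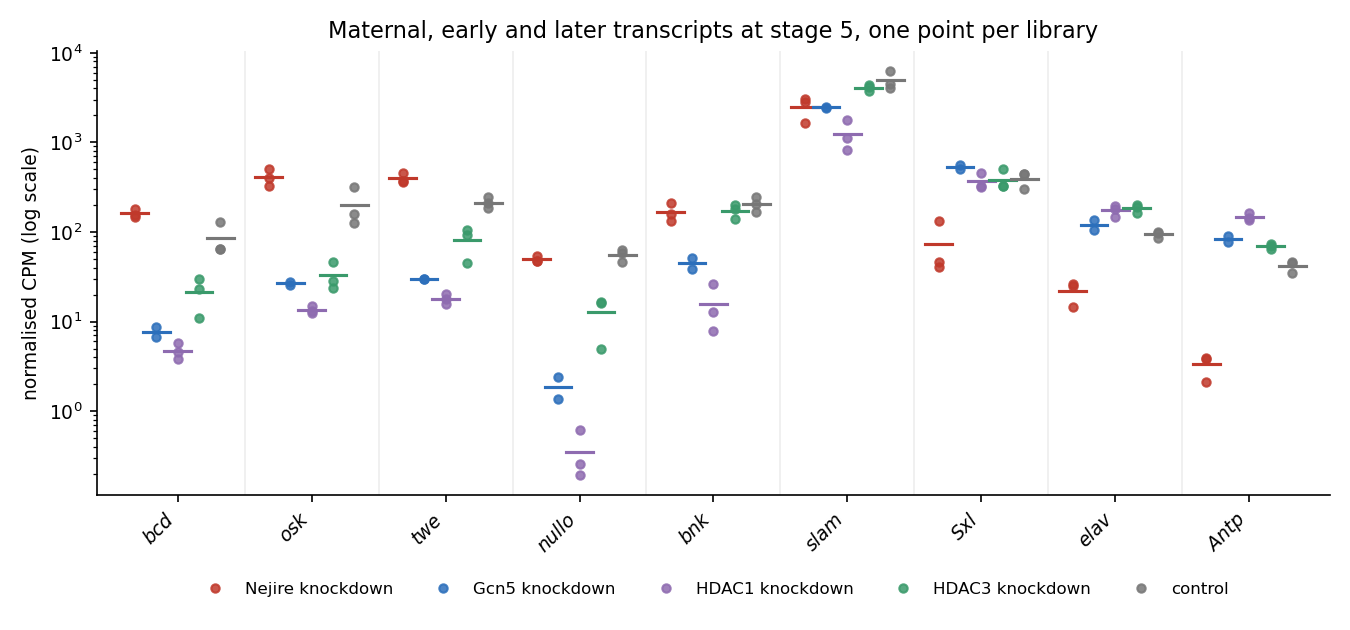
Normalised CPM (y axis, log scale) of maternal RNAs (bcd, osk, twe), early zygotic RNAs (nullo, bnk, slam) and later ones (Sxl, elav, Antp) in each stage 5 library of 5 groups, with points for libraries and bars for means. Nejire knockdown libraries sit highest for bcd, osk and twe and lowest for Sxl, elav and Antp.

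The segmentation cascade was lower in Nejire knockdown embryos, and more so at its later steps. Of 12 gap genes, which read the maternal gradients, 7 were lower and 2 higher, with a median log2 fold of -1.31. All 10 pair-rule genes were lower (median -2.35), as were 8 of 9 segment polarity genes (median -3.24) and 7 of 7 homeotic genes tested (median -3.58). The counts of pair-rule and segment polarity genes were the same under all 13 alternatives, and that of homeotic genes was 6 or 7. The order of these medians was not tested.

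Kr, the gap gene of the central embryo, had 72.5, 64.7 and 69.4 CPM in Nejire knockdown embryos, against 195 and 202 CPM in Gcn5 knockdown embryos and 288 to 354 CPM in controls. Its Nejire knockdown libraries lay below both Gcn5 knockdown libraries, which in turn lay below the controls (log2 fold -1.53 ± 0.11 SE, adjusted p = 1.81e-09). The gap genes knrl and tll, a relative of knirps and a terminal gap gene, were also lower, by 5.14-fold and 2.53-fold. kni and gt, 2 repressors of the trunk, were not called: kni had 63.5, 32.5 and 55.0 CPM in Nejire knockdown embryos, against 64.7 and 70.6 CPM in Gcn5 knockdown embryos (adjusted p = 0.0826), and gt averaged 83.0 ± 19.4 CPM in Nejire knockdown embryos and 91.9 ± 7.05 CPM in Gcn5 knockdown embryos (adjusted p = 0.487). hb, whose RNA is both maternal and zygotic, went the other way, with 578, 501 and 581 CPM in Nejire knockdown embryos, against 185 and 186 CPM in Gcn5 knockdown embryos (log2 fold 1.58 ± 0.13 SE, adjusted p = 1.01e-08). Controls had 435 to 584 CPM of hb, close to the Nejire knockdown. The other gap gene that was higher was cnc, which acts in the head, at log2 fold 1.20 ± 0.22 SE.

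Among pair-rule genes, prd, a paired-domain activator of segment polarity genes, had 29.7, 19.7 and 20.7 CPM in Nejire knockdown embryos, against 290.4 and 224 CPM in Gcn5 knockdown embryos (log2 fold -3.43 ± 0.17 SE, adjusted p = 2.42e-11). No library of one group came near the other, and controls averaged 139 CPM. ftz, which acts in even-numbered parasegments, had 25.5, 16.3 and 24.2 CPM in Nejire knockdown embryos, against 115 and 101 CPM in Gcn5 knockdown embryos, a level that controls shared (81.2 to 125 CPM). eve, a repressor of the same tier, had 10.4, 5.11 and 8.61 CPM in Nejire knockdown embryos, against 32.5 and 21.4 CPM in Gcn5 knockdown embryos and 29.3 to 49.6 CPM in controls. opa, a late pair-rule factor that also opens chromatin, was 7.82-fold lower, and slp2 and odd were lower by log2 folds of -3.06 ± 0.24 and -2.43 ± 0.13 SE. The smallest of the 10 differences was that of eve (log2 fold -1.70 ± 0.28 SE, adjusted p = 3.44e-05).

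The segment polarity genes carry cell signals. hh (chr3R:23128169-23141906, minus strand), which encodes the Hedgehog ligand, had 0.712, 0.378 and 0.879 CPM in Nejire knockdown embryos, against 19.1 and 18.3 CPM in Gcn5 knockdown embryos (log2 fold -4.76 ± 0.34 SE, adjusted p = 2.21e-09). Controls had 3.68 to 7.92 CPM, so both knockdowns lay outside their range, on opposite sides. wg, the Wingless ligand, had 8.90, 8.32 and 4.57 CPM in Nejire knockdown embryos, against 78.6 and 78.4 CPM in Gcn5 knockdown embryos. ptc, the Hedgehog receptor, and nkd, an antagonist of Wingless signalling, were lower by log2 folds of -2.61 ± 0.21 and -2.82 ± 0.21 SE. en, the homeodomain factor of posterior compartments, averaged 1.89 CPM in Nejire knockdown embryos and 12.2 CPM in Gcn5 knockdown embryos. Its neighbour inv was the member not called (log2 fold 0.59). The homeotic genes, which give segments their identity, showed the widest gap. Antp (chr3R:6896253-6999228, minus strand) had 2.14, 3.97 and 3.87 CPM in Nejire knockdown embryos, against 89.3 and 77.1 CPM in Gcn5 knockdown embryos and 34.9 to 46.1 CPM in controls. A share of 0.501 of its exon bases overlaps another annotated gene, so its counts are uncertain. Ubx had 1.25, 0.568 and 0.703 CPM in Nejire knockdown embryos, against 25.8 and 18.4 CPM in Gcn5 knockdown embryos (log2 fold -4.55 ± 0.32 SE, adjusted p = 2.25e-09). Dfd and abd-A were lower by log2 folds of -3.50 ± 0.26 and -3.58 ± 0.28 SE. Summed over the 8 homeotic genes listed, levels were 6.77 to 9.65 CPM in Nejire knockdown libraries, against 174 and 134 CPM in Gcn5 knockdown libraries and 76.1 to 93.2 CPM in controls. The summed levels of homeotic, pair-rule and segment polarity genes were below those of the controls in all Nejire knockdown libraries. In Gcn5 knockdown libraries pair-rule genes summed to 1217 and 1042 CPM, against 976 to 1014 CPM in controls. Segment polarity genes summed to 884 and 663 CPM there, against 510 to 658 CPM in controls. The second Gcn5 knockdown library thus barely passed the controls for these lists, and no test was made. Single genes such as eve averaged less in Gcn5 knockdown embryos than in controls.

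**Figure D3:**
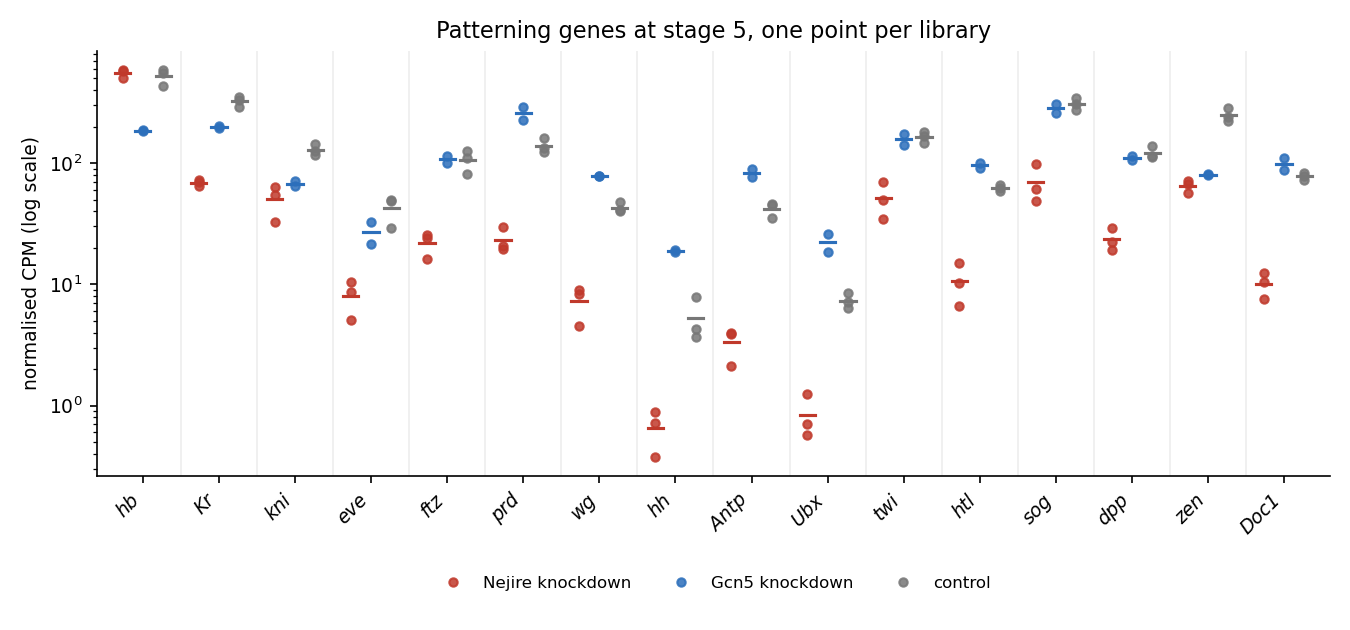
Normalised CPM (y axis, log scale) of 16 patterning genes in each stage 5 library of Nejire knockdown, Gcn5 knockdown and control embryos, with points for libraries and bars for means. Nejire knockdown libraries are the lowest for prd, wg, hh, Antp, Ubx, htl and Doc1, kni lies close between the knockdowns, and hb is the one shown that is higher in Nejire knockdown.

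Along the dorsoventral axis the ventral genes were lower. Of 12 mesoderm genes 10 were lower and none higher (median -1.93), and all 6 FGF pathway genes were lower (median -2.84). twi, the bHLH activator at the top of the mesoderm, had 69.7, 34.4 and 49.4 CPM in Nejire knockdown embryos, against 174 and 139.9 CPM in Gcn5 knockdown embryos, with controls at 145 to 181 CPM. sna, the repressor beside it, had 30.6, 19.1 and 32.3 CPM in Nejire knockdown embryos, against 67.1 and 66.4 CPM in Gcn5 knockdown embryos. For both genes the Gcn5 knockdown was near the controls and the Nejire knockdown below, by log2 folds of -1.60 ± 0.20 and -1.27 ± 0.16 SE. Other members of the list differed by more. Mdr49, a transporter of the mesoderm, was 7.28-fold lower, CadN, the cadherin that replaces epithelial cadherin in mesoderm cells, 12.9-fold lower, and tin, the heart factor, 9.17-fold lower. CadN was higher in Nejire knockdown embryos at stage 2, where it averaged 1.36 against 0.32 CPM (log2 fold 2.05 ± 0.54 SE, adjusted p = 0.0062). Mef2 and zfh1 were the members not called (log2 folds -0.44 and -0.49).

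The FGF genes guide the spread of the mesoderm. ths (chr2R:11756817-11814424, plus strand), an FGF ligand of the ectoderm, had 12.4, 11.9 and 8.61 CPM in Nejire knockdown embryos, against 178 and 161 CPM in Gcn5 knockdown embryos. That is 15.3-fold lower (log2 fold -3.93 ± 0.15 SE, adjusted p = 2.45e-12), with controls between, at 75.9 to 79.3 CPM. Its receptor htl had 15.0, 6.62 and 10.2 CPM in Nejire knockdown embryos, against 101 and 90.5 CPM in Gcn5 knockdown embryos. The adaptor stumps and the second ligand of htl, pyr, were lower by log2 folds of -3.11 ± 0.23 and -2.57 ± 0.22 SE. Summed over the 6 genes, levels were 48.4 to 74.1 CPM in Nejire knockdown libraries, against 557 and 455 CPM in Gcn5 knockdown libraries. The ventral furrow genes, which shape the invaginating mesoderm, were divided, with 3 lower and 2 higher of 6. Traf4, an adaptor at the junctions of these cells, had 31.3, 27.2 and 24.8 CPM in Nejire knockdown embryos, against 346 and 281 CPM in Gcn5 knockdown embryos (log2 fold -3.48 ± 0.12 SE, adjusted p = 1.3e-12). T48, an apical transmembrane protein, was lower by a log2 fold of -1.80 ± 0.13 SE. The secreted ligand fog and the G protein gene cta were higher by 1.33 ± 0.16 and 1.77 ± 0.23 SE. Maternal supply did not separate them, since stage 2 controls averaged 82.7 CPM of T48, 125 CPM of fog and 151 CPM of cta.

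In the neuroectoderm 8 of 12 genes were lower and none higher (median -1.61). SoxN, a Sox factor of neural fate, had 33.1, 25.5 and 26.4 CPM in Nejire knockdown embryos, against 259 and 209.5 CPM in Gcn5 knockdown embryos. sog, which encodes the Dpp antagonist Short gastrulation, had 97.7, 48.4 and 61.3 CPM in Nejire knockdown embryos, against 309 and 261 CPM in Gcn5 knockdown embryos and 273 to 346 CPM in controls. rho, a protease that releases EGF ligands, was lower by a log2 fold of -1.56 ± 0.15 SE. sim, the midline factor, averaged 2.00 ± 0.440 CPM in Nejire knockdown embryos and 15.3 ± 0.916 CPM in Gcn5 knockdown embryos (SD, n = 3 and 2), with controls at 3.37 CPM. vnd, D, ac and sc were not called. sc, a proneural gene that also counts X chromosomes, averaged 7.02 CPM in Nejire knockdown embryos and 3.85 CPM in Gcn5 knockdown embryos (adjusted p = 0.0921), both below the control mean of 29.2 CPM. It passed the threshold with DESeq2, without the filter of low counts and in a fit of the 5 libraries alone (adjusted p 0.0103 to 0.0483).

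Genes of the Notch pathway and the E(spl) group went the same way as those of the neuroectoderm. Of 10 Notch and E(spl) genes tested 9 were lower and 1 higher (median -2.65). Tom, an inhibitor of Delta uptake of the Bearded family, had 104, 81.0 and 139 CPM in Nejire knockdown embryos, against 659.8 and 721 CPM in Gcn5 knockdown embryos. Controls, at 221 to 354 CPM, lay between, and Brd of the same family showed the same order. neur, the ligase that activates Delta, was lower by a log2 fold of -1.77 ± 0.10 SE and the ligand gene Delta by -0.90 ± 0.12 SE. The receptor gene N was the one that was higher, a call that was lost when libraries were scaled to stable genes.

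Dorsal genes differed as well. Of 7 Dpp ligands and extracellular regulators 6 were lower (median -1.30), and of 13 dorsal ectoderm and amnioserosa genes 10 were lower (median -2.45), with none higher in either list. dpp (chr2L:2428372-2459823, plus strand), the BMP ligand that patterns dorsal cells, had 28.8, 19.1 and 22.3 CPM in Nejire knockdown embryos, against 114 and 106 CPM in Gcn5 knockdown embryos and 112 to 139 CPM in controls. tok, a metalloprotease related to Tolloid, had 7.48, 10.0 and 8.61 CPM in Nejire knockdown embryos, against 109.6 and 79.5 CPM in Gcn5 knockdown embryos (log2 fold -3.47 ± 0.16 SE, adjusted p = 1.71e-11). tld itself, which cleaves Sog, had 51.4, 44.1 and 54.5 CPM in Nejire knockdown embryos, against 134 and 113 CPM in Gcn5 knockdown embryos. Both knockdowns lay far below the controls, which had 318 to 399.9 CPM. The second BMP ligand, scw, was not called between the knockdowns, at 22.1 ± 7.65 CPM in Nejire knockdown embryos and 18.7 ± 5.90 CPM in Gcn5 knockdown embryos (SD, n = 3 and 2; adjusted p = 0.495). Controls held 139.8 to 160.3 CPM of it, above all 5 libraries. zen, the homeobox gene of the amnioserosa, was likewise not called (65.1 ± 7.87 CPM in Nejire knockdown embryos and 80.2 ± 0.881 CPM in Gcn5 knockdown embryos, adjusted p = 0.114), with controls at 250.1 CPM. Its later partners in dorsal cells did differ. Doc1, a T-box factor, had 10.4, 12.3 and 7.56 CPM in Nejire knockdown embryos, against 109 and 88.3 CPM in Gcn5 knockdown embryos, and the peptidase gene Ance, the GATA cofactor gene ush and the TNF ligand gene egr were lower by log2 folds of -3.14 ± 0.21, -3.07 ± 0.22 and -2.40 ± 0.15 SE. The receptors and transducers of Dpp showed no such shift, with 3 of 7 higher and 1 lower (median 0.40). Of these, the receptor genes sax and wit and the transducer gene Mad were higher and the nuclear effector gene shn lower (log2 fold -1.68 ± 0.20 SE).

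Genes of the gut and termini were divided by their origin. fkh, byn, bowl and srp, zygotic or mostly zygotic regulators, were lower, with byn, the hindgut T-box gene, 7.93-fold lower. The maternal RNAs of tor and cad, the terminal receptor and the posterior homeobox factor, were higher, by log2 folds of 2.56 ± 0.16 and 2.23 ± 0.26 SE, as was Hnf4 (3.13 ± 0.47 SE).

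The earliest zygotic genes, most of them short genes transcribed before the others, did not move as one. Of 14 tested, 7 were lower and 3 higher (median -0.34). spo, a P450 enzyme gene, had 95.7, 60.2 and 87.3 CPM in Nejire knockdown embryos, against 571 and 478 CPM in Gcn5 knockdown embryos. Z600, also called frs, which halts the cell cycle, had 205, 103 and 170.4 CPM in Nejire knockdown embryos, against 348 and 559.9 CPM in Gcn5 knockdown embryos. The 3 that were higher were nullo, bnk and amos. bnk, which times furrow constriction, had 158, 131 and 213 CPM in Nejire knockdown embryos, against 38.6 and 51.2 CPM in Gcn5 knockdown embryos, and amos, a proneural gene, had 15.8, 17.4 and 14.1 CPM in Nejire knockdown embryos, against 2.73 and 2.27 CPM in Gcn5 knockdown embryos (log2 fold 2.64 ± 0.35 SE, adjusted p = 3.55e-06). Of 11 cellularization genes 5 were higher and 2 lower. Their median of 0.17 became -0.21 with scaling to stable genes.

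Genes that read the X chromosome dose and set sex were mostly lower or not called, 7 lower and 1 higher of 14. Sxl, the master switch of female fate, had 133, 40.7 and 46.7 CPM in Nejire knockdown embryos, against 507 and 554 CPM in Gcn5 knockdown embryos, with controls at 302 to 441 CPM (log2 fold -2.82 ± 0.35 SE, adjusted p = 1.56e-06). Its activator run was 3.73-fold lower, and its repressors dpn and emc, lower too, differed by log2 folds of -1.84 ± 0.12 and -2.52 ± 0.13 SE. Of dpn, a share of 0.593 of the exon bases overlaps an antisense gene. Dosage compensation genes were divided, with the male-specific msl-2 lower (-1.08 ± 0.15 SE) and the maternally supplied msl-1, msl-3 and Clamp higher (1.57 ± 0.16, 1.23 ± 0.12 and 1.83 ± 0.14 SE). zld, the gene of the pioneer factor Zelda, averaged 473 ± 128 CPM in Nejire knockdown embryos and 351 ± 60.8 CPM in Gcn5 knockdown embryos and was not called (adjusted p = 0.21), but passed in a fit of the 5 libraries alone and without the filter (adjusted p 0.0018 to 0.0477). Among 8 pioneer and early chromatin factors 2 were higher and 3 lower.

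Gap junction genes were mostly lower, and other signalling lists were divided. Of 6 innexin genes, which form gap junctions, 5 were lower. Inx3 had 199.9, 134 and 165 CPM in Nejire knockdown embryos, against 1001 and 969.5 CPM in Gcn5 knockdown embryos, and ogre was lower by a log2 fold of -3.14 ± 0.18 SE. Of 7 JAK/STAT genes 3 were lower and 2 higher: the ligand genes upd1 and upd2 and the feedback gene Socs36E were lower, while the kinase gene hop and Stat92E were higher. Of 10 ecdysteroid genes 5 were lower and 3 higher. phtm and dib, P450 enzymes of hormone synthesis, were lower by log2 folds of -3.50 ± 0.21 and -2.99 ± 0.17 SE, and the maternally supplied nuclear receptor gene ftz-f1 was higher (3.02 ± 0.20 SE). Among 13 cell death genes 7 were lower and 3 higher. rpr, an activator of death that controls hold at 12.8 CPM, averaged 2.18 CPM in Nejire knockdown embryos and 13.4 CPM in Gcn5 knockdown embryos, and the inhibitor gene Diap1 was 2.76-fold lower. Of 10 stress and JNK genes 3 were higher and 3 lower.

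Maternal RNAs stood at the other end. Of 21 maternal axis genes 18 were higher in Nejire knockdown embryos and none lower, with a median log2 fold of 2.23. swa, which localises bcd RNA, had 375, 431 and 357 CPM in Nejire knockdown embryos, against 22.6 and 19.4 CPM in Gcn5 knockdown embryos and 160.5 to 288 CPM in controls. spz, the ligand of the dorsoventral Toll pathway, had 38.8, 57.3 and 37.1 CPM in Nejire knockdown embryos, against 1.98 and 2.27 CPM in Gcn5 knockdown embryos. Myd88 and pum, a Toll adaptor and a translational repressor, were higher by log2 folds of 3.40 ± 0.27 and 2.35 ± 0.18 SE. Maternal RNA regulators, a list that also holds the cell cycle genes twe and stg, behaved alike, with 13 of 17 higher and none lower (median 1.22). smg (chr3L:8990317-8997989, minus strand), which marks maternal RNAs for decay, had 2539, 3171 and 2766 CPM in Nejire knockdown embryos, against 178 and 173 CPM in Gcn5 knockdown embryos. Controls had 1236 to 2421 CPM, so the Nejire knockdown lay above their range and the Gcn5 knockdown far below it (log2 fold 4.01 ± 0.32 SE, adjusted p = 7.19e-09). me31B, a P-body helicase, was higher by 1.29 ± 0.13 SE. Summed over the 18 genes listed, levels were 9341 to 10979.9 CPM in Nejire knockdown libraries, against 3320.2 and 3402.5 CPM in Gcn5 knockdown libraries and 6875 to 10214 CPM in controls.

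Of 20 germ plasm and piRNA genes 12 were higher and 2 lower (median 0.78). osk, the organiser of germ plasm, had 326, 500.4 and 400.1 CPM in Nejire knockdown embryos, against 27.7 and 25.7 CPM in Gcn5 knockdown embryos, though a noncoding RNA overlaps a share of 0.785 of its exons. gcl and qin, a germ cell factor and a piRNA factor, were higher by 2.76 ± 0.29 and 2.59 ± 0.25 SE. cuff, which protects piRNA cluster transcripts, was lower (log2 fold -4.05 ± 0.46 SE), and was already lower at stage 2 (-1.20 ± 0.14 SE, adjusted p = 6.5e-06). Of 14 genes of the last blastoderm divisions 9 were higher and 3 lower. twe and stg, which encode Cdc25 phosphatases, had 362, 459 and 369.8 CPM and 222, 315 and 253 CPM in Nejire knockdown embryos. In Gcn5 knockdown embryos twe had 30.3 and 29.9 CPM and stg 50.3 and 41.4 CPM, below every control library. CycB was higher by 2.10 ± 0.20 SE and the inhibitory kinase gene Wee1 by 1.68 ± 0.13 SE.

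**Figure D4:**
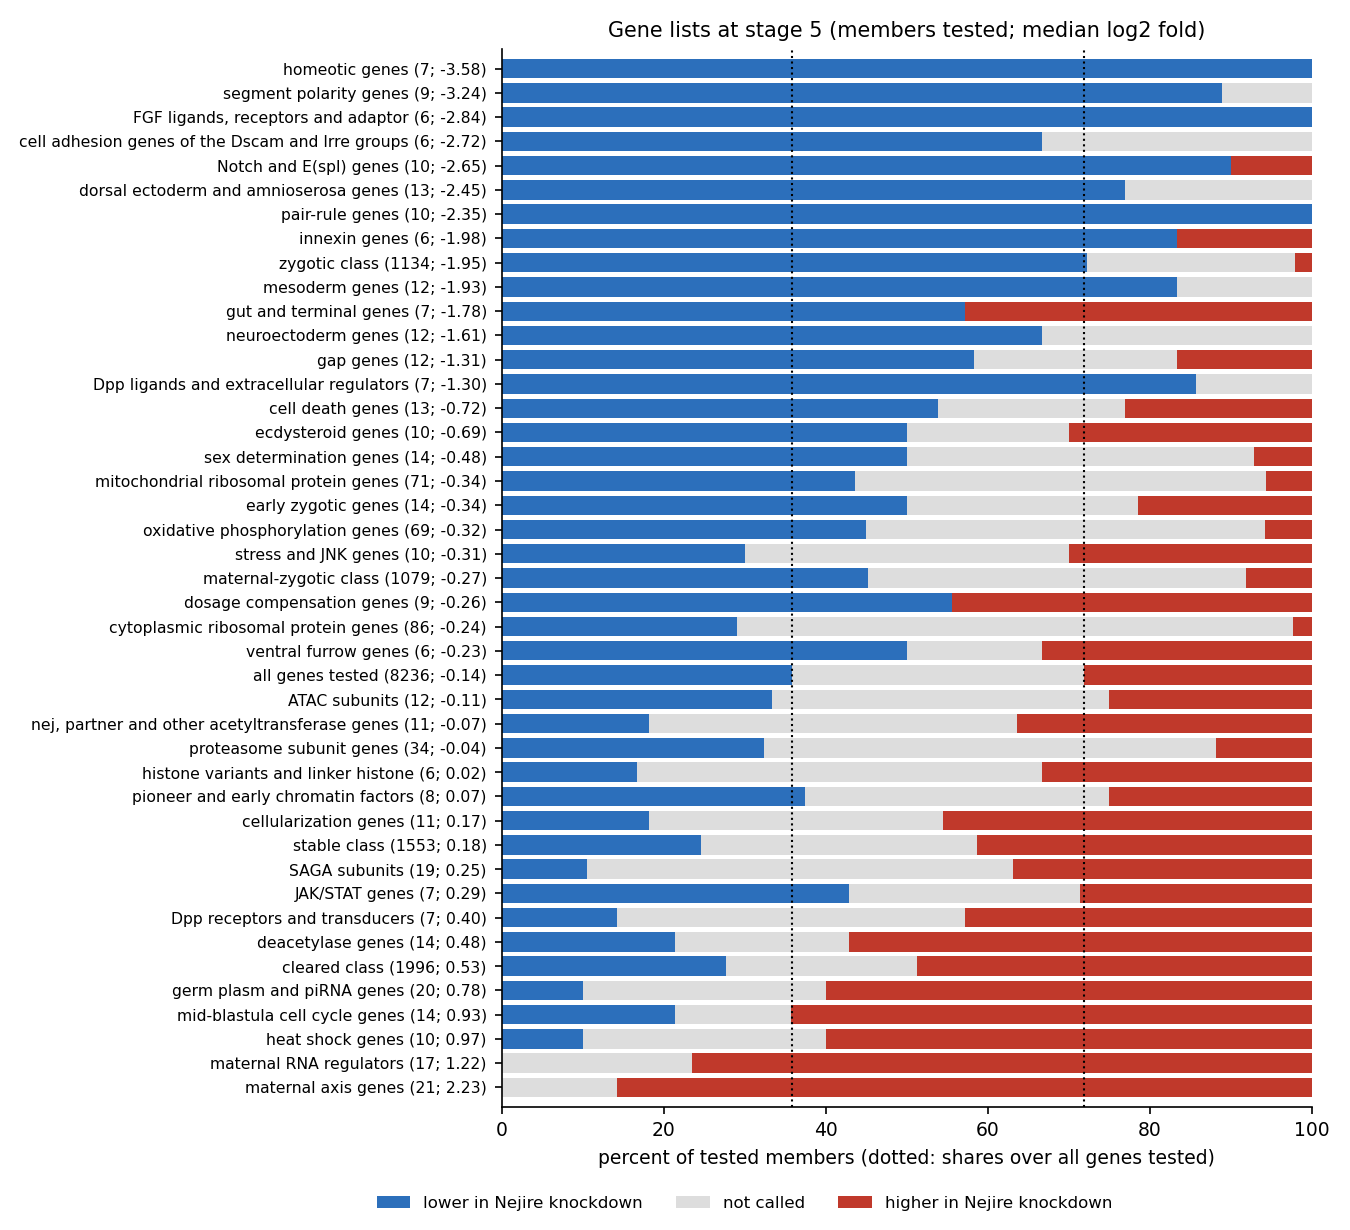
Share of the tested members of each gene list with at least 6 tested members that were lower (blue), not called (grey) or higher (red) in Nejire than in Gcn5 knockdown embryos at stage 5. Labels give the number tested and the median log2 fold, and dotted lines mark the shares over all genes (35.8% lower, 28.2% higher). Patterning lists from homeotic to pair-rule genes lie at the top, almost wholly lower, and maternal lists at the bottom.

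Genes of the acetylation machinery differed less. Of 19 SAGA subunit genes 7 were higher and 2 lower (median 0.25), and of 12 ATAC subunit genes 3 were higher and 4 lower (median -0.11). Both lists count Gcn5 itself, a knockdown target, among the higher genes. With scaling to stable genes 4 SAGA genes were higher and 8 lower (median -0.12), and 1 ATAC gene was higher and 7 lower (median -0.48), so no direction is drawn for either list. Apart from Gcn5, the SAGA adaptor gene Ada2b had 206, 249.9 and 206 CPM in Nejire knockdown embryos, against 82.7 and 68.4 CPM in Gcn5 knockdown embryos. The SAGA structural gene wda had 19.4, 16.1 and 16.2 CPM in Nejire knockdown embryos, against 60.5 and 57.9 CPM in Gcn5 knockdown embryos, a level that controls shared (51.5 to 66.0 CPM). Atac2, the second acetyltransferase of ATAC, was lower by a log2 fold of -2.58 ± 0.22 SE and Atac3 by -1.72 ± 0.28 SE. Among 11 genes of Nejire partners and other acetyltransferases 4 were higher and 2 lower, with the H3K4 methyltransferase gene trr at 1.47 ± 0.25 SE and the acetyltransferase gene Elp3 at -1.38 ± 0.16 SE. The higher call of enok (0.51 ± 0.15 SE) was lost with scaling to stable genes and with an offset for exon length. Of 14 deacetylase genes 8 were higher and 3 lower, but only 4 were higher both with scaling to stable genes (4 lower) and with the length offset (3 lower). MTA1-like, of the NuRD complex, was higher by 1.15 ± 0.12 SE, Sirt6 lower by -1.88 ± 0.26 SE, and HDAC1 not called (623 ± 32.3 against 652 ± 21.8 CPM, adjusted p = 0.596). BigH1, the linker histone of early embryos, had 229.6, 293 and 222 CPM in Nejire knockdown embryos, against 31.1 and 31.3 CPM in Gcn5 knockdown embryos, and the centromeric histone gene cid was lower (log2 fold -2.14 ± 0.28 SE). His2Av, a variant that every nucleus uses, was 1.24-fold higher (adjusted p = 0.0137), with the opposite sign under scaling to stable genes (-0.07).

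The direction of housekeeping genes depended on the processing. Of 86 cytoplasmic ribosomal protein genes 25 were lower and 2 higher (median -0.24), but 71 were lower and none higher with scaling to stable genes, and 8 were lower and 28 higher with an offset for exon length. Mitochondrial ribosomal protein genes (31 of 71 lower, 4 higher, median -0.34) and oxidative phosphorylation genes (31 of 69 lower, 4 higher, median -0.32) had 54 and 62 lower with scaling to stable genes, and 16 and 14 lower against 16 and 12 higher with the length offset. Proteasome genes had 11 of 34 lower and 4 higher, against 25 lower with scaling to stable genes and 15 higher with the offset. No direction is drawn for these lists. Single genes differed more: COX7A, of cytochrome c oxidase, was 3.85-fold lower, mRpL46 6.87-fold lower and Rpn11 4.46-fold lower. Transcript length moved with the comparison. Across 8170 genes the Spearman correlation of the log2 fold with exon length was 0.19, a description over genes that share the same 5 libraries. Genes higher in Nejire knockdown embryos had a median of 2815.5 exon bases, genes lower 1918 and genes not called 1755. Across 1539 stable genes the correlation was 0.32. The slope of log2 CPM, relative to the mean of the 14 libraries, per doubling of exon length also varied within a group. It was -0.063 and -0.164 in the Gcn5 knockdown libraries and 0.025 to 0.045 in the Nejire knockdown libraries. The part of length in these results was not tested further, and 5425 genes were called with the offset.

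The largest differences included 1 homeotic gene, Abd-B, and genes of other kinds. Among 3207 named protein-coding genes that were called without overlap and reached 5 CPM in one knockdown, the 10 largest falls included neo, Or2a, sunn, Fs and Abd-B. neo, a zona pellucida protein gene, held 1 count over the 3 Nejire knockdown libraries and 11.3 and 13.1 CPM in the Gcn5 knockdown libraries, at a ratio whose 95% interval for counting error runs from 47.9 to 10720.0. It was at 0 in all 3 control libraries. Or2a, an odorant receptor gene, held 2 counts in the Nejire knockdown libraries, against 18.6 and 21.8 CPM in the Gcn5 knockdown libraries (ratio 224, 95% counting interval 61.4 to 1854) and 0 to 0.381 CPM in controls. sunn, a meiotic cohesin gene, averaged 0.152 CPM in Nejire knockdown embryos and 18.7 CPM in Gcn5 knockdown embryos, with controls at 0.684 CPM. For these 3 genes the Gcn5 knockdown stood apart from both other groups. Fam92, jeb and ETH completed the falls with Cp15 and Cp18, and 0.905 of the exon bases of ETH overlap an antisense gene.

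Among the 10 largest rises, fd19B, a forkhead gene of the blastoderm head, had 21.1, 20.6 and 19.5 CPM in Nejire knockdown embryos, against 0.372 and 0.134 CPM in Gcn5 knockdown embryos and 4.69 to 9.50 CPM in controls. hoe1, a maternal transporter gene, had 219, 270.3 and 209 CPM in Nejire knockdown embryos, against 9.30 and 8.95 CPM in Gcn5 knockdown embryos. by, MCU, rost, capu and nullo were likewise near or above the controls in Nejire knockdown embryos and below them in Gcn5 knockdown embryos. GluRIIB, zormin and Hsp70Bb differed in being high in Nejire knockdown embryos alone. GluRIIB, a glutamate receptor gene of muscle, had 6.50, 12.7 and 8.61 CPM in Nejire knockdown embryos, against 1 count in the Gcn5 knockdown libraries (132-fold, 95% interval 23.5 to 5252.9 for counting error only) and 0 to 0.553 CPM in controls. zormin, a giant muscle protein gene, had 33.7, 86.8 and 112 CPM in Nejire knockdown embryos, against 1.36 and 2.94 CPM in Gcn5 knockdown embryos and 2.38 to 12.7 CPM in controls. Hsp70Bb, a heat-inducible chaperone gene with near-identical copies whose reads the counting could split, had 29.3, 18.9 and 40.2 CPM in Nejire knockdown embryos, against 0.992 and 0.668 CPM in Gcn5 knockdown embryos and at most 0.369 CPM in controls. Its copy Hsp70Ba was lower (log2 fold -3.71 ± 0.71 SE). Of 10 heat shock genes 6 were higher and 1 lower, with the maternal Hsp26 and Hsp27 at 2.51 ± 0.19 and 2.49 ± 0.42 SE.

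Genes that often differ between fly stocks were checked because the knockdowns had different parent lines. y, the body pigment gene that marks many stocks, had 2.94, 5.11 and 8.43 CPM in Nejire knockdown embryos, against 131 and 173 CPM in Gcn5 knockdown embryos and 1.19 to 3.51 CPM in controls. Of these 3 groups the Gcn5 knockdown alone held high y (log2 fold -4.87 ± 0.33 SE), and at stage 2 its libraries held 73 counts of y, against 2 in the Nejire knockdown (ratio 33.6, 95% counting interval 8.98 to 283). ry and w were lower as well (-3.08 ± 0.16 and -2.56 ± 0.55 SE), though there the Gcn5 knockdown was near the controls, and sn was not called. Of the immunity genes only Rel and PGRP-SB1 were expressed enough to test, and neither was called. Markers of tissues outside the blastoderm varied in level between lists and libraries. 16 eggshell and yolk genes summed to 0.946 to 1.93 CPM in Nejire knockdown libraries, against 121 and 7.88 CPM in Gcn5 knockdown libraries and 1.48 to 2.38 CPM in controls. The first Gcn5 knockdown library stood apart here, and Cp15 and Cp18, called lower, depended on it: without it the log2 fold of Cp18 was -2.42 and no longer called (adjusted p = 0.0533), while Cp15 was still called at a smaller fold. Without this library 4735 genes were called, and 6 of 201 named results lost their call, Cp18 and His2Av (adjusted p = 0.201) among them. Yp1, Yp2 and Yp3 were too low to test. 13 testis genes summed to 61.5 to 79.1 CPM in Nejire knockdown libraries and 50.2 and 57.5 CPM in Gcn5 knockdown libraries. 12 late neural, glial and muscle genes summed to 89.1 to 112 CPM in Nejire knockdown libraries and 220.2 and 185 CPM in Gcn5 knockdown libraries, and 11 hemocyte, tracheal and cuticle genes to at most 8.99 CPM in any of the 5.

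Stage 2 embryos of the same crosses differed less. Of 6916 genes tested 3054 (44.2%) were called, 1498 higher (21.7%) and 1556 lower (22.5%), and only 182 and 304 of these differed at least 2-fold. Of the 2320 genes higher at stage 5, 913 were also higher at stage 2 (39.4% of the stage 5 calls and 60.9% of the stage 2 calls) and 205 were lower. Of the 2948 lower genes, 777 were also lower at stage 2 (26.4% and 49.9%) and 185 were higher. Only 2262 of the higher and 2022 of the lower genes were tested at stage 2. The shares of stage 5 calls count untested genes as not repeated, so they are not to be compared between directions. The 2 comparisons share no library but do share the parent lines. Some genes were called in the same direction at both stages with large folds. neo held 2 counts over the Nejire knockdown libraries and 422 over the Gcn5 knockdown libraries at stage 2. sunn had log2 folds of -6.58 at stage 5 and -5.70 at stage 2, and the adhesion gene rst -4.14 and -4.46. For its relative kirre they were -3.57 and -5.26, a change between stages that was itself called (adjusted p = 0.0308). Unlike for neo and sunn, the Nejire knockdown lay far below the controls for rst and kirre. At stage 2 rst averaged 2.81 CPM in Nejire knockdown, 58.8 CPM in Gcn5 knockdown and 34.9 CPM in control embryos. kirre averaged 0.526, 20.1 and 11.4 CPM in the same order. Both rst and w lie within the span of kirre on the X chromosome. zormin was higher at both (5.16 and 6.74). By contrast several maternal RNAs named above differed much less at stage 2 than at stage 5. smg averaged 2746 CPM in Nejire knockdown embryos and 1808 CPM in Gcn5 knockdown embryos at stage 2 (log2 fold 0.60 ± 0.07 SE), and bcd 132 and 109 CPM (0.28 ± 0.06 SE), both called. swa (579 and 560.3 CPM) and BigH1 (498 and 464 CPM) were not called at stage 2 (adjusted p = 0.435 and 0.203). Other maternal RNAs named above differed by more at stage 2. by had a log2 fold of 2.06 ± 0.17 SE there (adjusted p = 1.2e-07) and wit one of 1.87 ± 0.17 SE (adjusted p = 5.4e-07).

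The difference between stages was itself tested. Of 8675 genes, 3777 (43.5%) had a Nejire against Gcn5 difference that changed from stage 2 to stage 5, 2043 upward (23.6%) and 1734 downward (20.0%). That split depended on scaling and on the filter, with 1387 upward and 2892 downward under RLE scaling, so no direction is drawn from it. Of the genes called higher at stage 5, 1766 of 2320 also had an upward change between stages, and of those called lower 1537 of 2948 a downward one. Genes with almost no stage 2 counts could hardly be called here, as with wg (-3.33 ± 10297 SE). A gene without a called change is therefore not shown to differ alike at both stages. swa had a change of 4.16 ± 0.26 SE between stages (adjusted p = 7.09e-13), hoe1 one of 4.34 ± 0.32 SE (adjusted p = 9.13e-12), bcd one of 4.11 ± 0.34 SE (adjusted p = 6.36e-11) and MCU one of 4.53 ± 0.41 SE (adjusted p = 3.31e-10). Among genes with a downward change, emc moved by -2.59 (adjusted p = 7.4e-13) and wda by -1.61 (adjusted p = 1.27e-08), neither being called at stage 2. Genes on the X chromosome, on which nej lies, were higher in 33.2% and lower in 28.5% of 1383 genes tested (median 0.03), while medians of the other arms ran from -0.22 to -0.14.

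**Figure D5:**
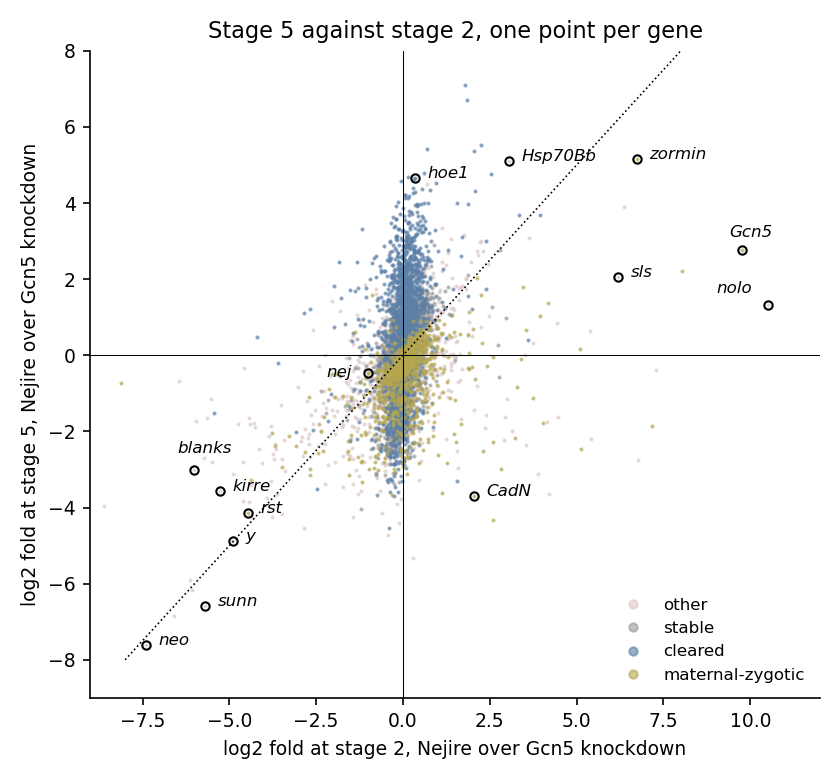
Log2 fold (Nejire over Gcn5 knockdown) at stage 5 (y axis) against that at stage 2 (x axis), one point per gene tested at both stages, coloured by class, with circled genes named and equal folds on the dotted line. neo, sunn, y and rst lie near the dotted line at the lower left, and cleared genes such as hoe1 spread along the vertical axis.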

How the data were processed

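Gene counts of total RNA were used as the authors deposited them, raw and listed by FlyBase ID. Per the submitters' processing notes, bcl2fastq 2.20.0.422 and the build dm6 were used. Sources used here name no aligner, counter, annotation or strand setting, so reads of overlapping genes may not be told apart. Of 17753 genes 99.3% matched Ensembl release 115, whose coordinates (dm6) are given. Nuclear RNA was not used.

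Genes passing filterByExpr (10 counts, 15 in total) were tested by the quasi-likelihood F test of edgeR 4.0.16 (R 4.3.3) after TMM scaling, with Benjamini-Hochberg adjustment over all genes tested and a threshold of 0.05. The 14 stage 5 libraries of the main set (Nejire, Gcn5, HDAC1 and HDAC3 knockdowns and their controls) were fitted together, since 5 libraries leave little to estimate the spread from, as were the stage 2 libraries and, for the interaction, both stages. SE is the log2 fold divided by the root of F. Zygotic genes had under 1 CPM at stage 2 and a log2 rise of at least 3 in batch1 controls, maternal-zygotic and cleared genes a change of at least 1, and stable genes one under 0.5 at 5 CPM or more.

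The comparison and its 44 gene lists were chosen with earlier results of these data known. The rule names 195 genes: both targets, the 10 genes of largest rise and of largest fall at stage 5 (4 at stage 2 and for the interaction) among called, named protein-coding genes with at least 5 CPM and no overlap, the members of lowest adjusted p in each list (up to 4), and a panel of patterning genes. Other list members are named as examples, with their values seen. Alternatives were RLE scaling, scaling to stable genes, no filter, the Nejire and Gcn5 knockdown libraries alone, DESeq2 1.42.0, a replicate block, an offset for exon length and each library left out. The block with the offset was chosen after seeing the data. The test was run on simulated counts with known changes.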

Additional observations from a re-analysis of the deposited data

Results flagged for a closer look

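For 3777 genes the Nejire against Gcn5 difference at stage 5 was not the one at stage 2, by a test of the difference itself (edgeR, adjusted p under 0.05). The largest downward changes by the naming rule were those of nolo (log2 -8.87), Kank (-8.49), sisA (-8.28) and Mabi (-8.03). In each of these the 3 Gcn5 knockdown libraries of stage 2 held 0 counts, so the fitted value depends on the prior count and is no bound. nolo had 170, 150 and 95 counts in Nejire knockdown embryos at stage 2, at least 150.2-fold more than the 3 counts over the group taken as a floor for the Gcn5 knockdown, and at stage 5 it was higher by a log2 fold of 1.32. For sisA 50 of 52 and for Mabi all 36 stage 2 counts of the Nejire knockdown lay in its first library. Without that library neither was called (log2 -4.37, adjusted p = 0.337, and -1.35, adjusted p = 1). The largest upward changes were those of rost (4.63), MCU (4.53), GstT4 (4.39) and ZnT41F (4.34). rost and MCU differed little at stage 2 (log2 folds -0.05 and 0.15). GstT4 had 0 counts in the Nejire knockdown at stage 2, against 45, 27 and 51 in the Gcn5 knockdown, and was not called under 11 alternatives (adjusted p 0.0563 to 0.103 in these).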

How the results depend on the processing

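Between 4616 and 5952 genes were called at stage 5 under the 13 alternatives, against 5268. Leaving out a library gave 4616 to 5035, DESeq2 5242, no filter 5358 and the 5 libraries alone 5025. Scaling to stable genes moved the share of lower calls most, to 73% from 56%. nej, not called, was lower and called with the length offset (-0.70), without the filter (-0.44), with scaling to stable genes (-0.86) and with the block and offset together (-0.71). Under the interaction, upward calls fell to 1353 without the filter, and downward calls were 3123 with DESeq2, 2892 with RLE scaling and 2703 without the filter. Signs changed for genes that were small or not called: with scaling to stable genes His2Av (-0.0679), Rel (-0.14), sn (-0.22) and trh (-0.083), with the length offset His4r (0.24), sn (-0.057) and trh (-0.021), and with block and offset His4r (0.23), sn (-0.027) and trh (-0.051). The cause was not tested.

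Same-numbered replicates did not deviate together at stage 5 (correlations -0.04 and 0.02) or stage 2 (-0.40 to 0.04). At stage 5 the deviations of the 2 Gcn5 knockdown libraries mirror each other, so these correlations say little about pairing. At stage 2 some libraries of different number did deviate together, with a correlation of up to 0.41. Whether samples were paired is therefore not known. With the replicate block 5092 genes were called, 2918 at stage 2 and 3719 for the interaction. With 2 Gcn5 knockdown libraries, genes under about 10 counts were not tested, and a difference that misses the threshold is not shown to be absent.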
